A study of Rattus norvegicus with 12 samples.

Results

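The genes examined here were 10 members of the integrated stress response and of the serine and one-carbon pathway that it controls: Atf4, Atf5, Ddit3, Trib3, Asns, Chac1, Phgdh, Psat1, Shmt2 and Mthfd2. They were chosen by symbol, and all 10 were found among the 30560 genes listed. RNA was sequenced from the left ventricle of 12 male Wistar rats, 1 library per rat, in 3 groups of 4. Sham rats had the chest opened without ligation and were gavaged with the vehicle, 0.5% carboxymethylcellulose. MI rats had the left anterior descending coronary artery ligated at 7 weeks of age, which gives a myocardial infarction, and received the same vehicle. MI + UA rats had the same ligation and were gavaged with urolithin A, a compound that gut bacteria make from plant ellagitannins, at 50 mg/ml by the labels and methods. The study's own results text gives the dose and the start of treatment differently, and neither enters the tests. Gavage was daily over 8 weeks, and all hearts were taken after an overnight fast, 1 day after the last dose. The tissue was formalin-fixed, paraffin-embedded ventricle sectioned at mid level, so a library from a ligated heart can hold scar and surviving muscle together. Rat_66 is labelled MI + UA, while a supplementary table of the study lists that number among the vehicle-treated MI rats. It was kept as labelled, and the text gives values with it counted in MI beside results that it changed.

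The integrated stress response is a way for cells to slow protein synthesis under stress. Any of a small family of kinases phosphorylates the initiation factor eIF2, general translation falls, and a few messenger RNAs with upstream reading frames, Atf4 foremost, are translated more. ATF4 then switches on genes for amino acid import, asparagine and serine synthesis and mitochondrial one-carbon metabolism, and in heart and skeletal muscle this programme is known to follow defects of the mitochondria. Because the ATF4 protein is set largely by translation, its messenger RNA need not follow its activity, and only messenger RNA was measured here.

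Between 6228706 and 19031695 reads per library fell on genes, and the MI + UA libraries spanned nearly all of that range (6819444 to 19031695). The 13 mitochondrially encoded genes took 50.2 to 58.6% of these reads. Values below are CPM, reads scaled to a common library size, with TMM factors, which also allow for differences in composition. CPM are not divided by transcript length, so levels are compared between rats and never between genes. The 10 genes differed widely in depth. Atf4 had 8259 reads over the 12 libraries, Shmt2 2304 and Ddit3 811, while Asns had 172, Mthfd2 165 and Phgdh 76. The other 4, Psat1 (47 reads), Chac1 (34), Trib3 (27) and Atf5 (15), each had at least 1 library with no read, so for these only very large differences were detectable. A library with no read of a gene allows up to 3 reads, and this covers counting error only. All 10 passed the minimum of 10 reads in total.

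The labelled tissue was checked against marker genes of heart cells. All 11 cardiomyocyte markers tested were detected in the libraries. All 11 lay lower in MI than in Sham, 10 of them at an edgeR adjusted p under 0.05, the threshold for a call here. Their summed level was 20330 to 23680 CPM in Sham, 14420 to 15260 in MI and 14830 to 17960 in MI + UA. Of the fibroblast markers, 10 of 10 lay higher in MI and 8 were called. Their sums were 1206 to 1539 CPM in Sham, 2322 to 3761 in MI and 2336 to 3803 in MI + UA. Of the macrophage markers, 8 of 8 lay higher and 7 were called, with sums of 120.7 to 152.3, 245.7 to 397.2 and 205.9 to 423.6 CPM. For these 3 lists the sums of ligated and sham hearts did not overlap. Of the remaining lists, 1 of 7 endothelial markers was called lower in MI. Called higher were 3 of 6 smooth muscle, 1 of 7 lymphocyte, 1 of 6 Schwann cell and 0 of 3 adipocyte markers. By direction alone, 6 of 7 endothelial markers had a log2 fold change below 0. Above 0 were 4 of 6 smooth muscle, 4 of 7 lymphocyte, 6 of 6 Schwann cell and 2 of 3 adipocyte markers. In bulk tissue, fewer cells of a type and less RNA per cell cannot be told apart. The part of these markers in the results on the 10 genes was not tested. In Rat_58, an MI + UA rat, the Schwann cell markers summed to 444.8 CPM, against 84.59 to 133.2 in the other 11 rats.

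Of the 10 genes, 1 passed the test between MI and Sham. Mthfd2, a mitochondrial enzyme of the folate pathway, rose in the infarcted hearts, and 0 fell. At the same threshold, an adjusted p of 0.05 in edgeR's quasi-likelihood test, 11.4% of all 18182 genes tested were called (5.82% higher and 5.53% lower), so 1 of 10 is near the share of all genes. Atf4 itself differed little and was measured precisely. The 10 log2 fold changes divided evenly, 5 above 0 and 5 below, with a median of 0.0 beside 0.03 over all genes. The groups failed to overlap for Mthfd2 alone among the 10, whereas 15.7% of all genes did not overlap (8.12% higher and 7.56% lower).

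**Figure D1:**
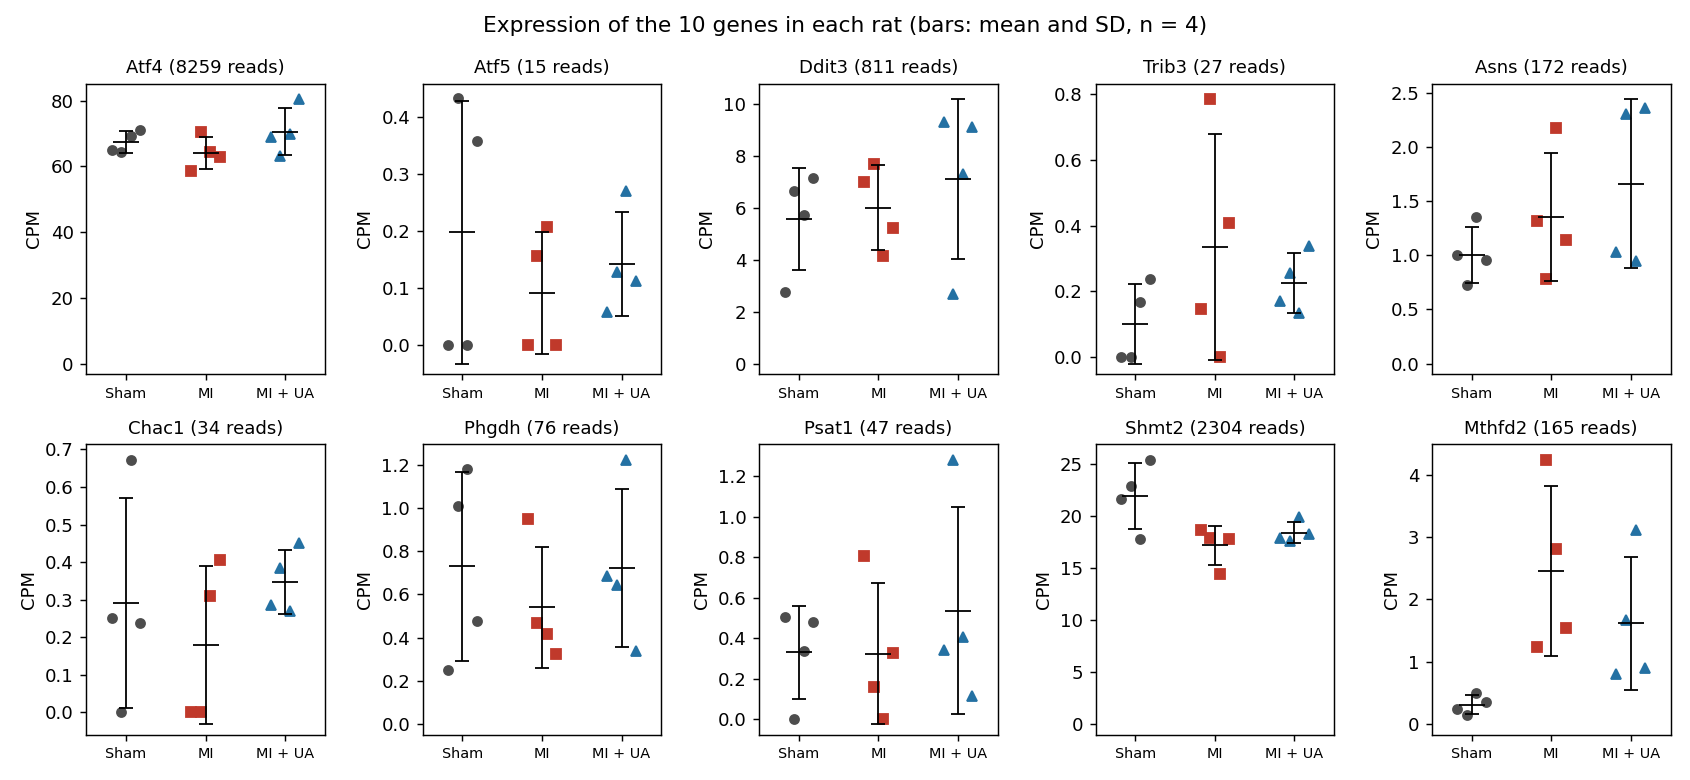
CPM of each gene (vertical axes, linear, one scale per panel) in the 4 Sham, 4 MI and 4 MI + UA rats; each point is 1 rat, and the bars give the mean and SD. For Mthfd2 all MI and MI + UA rats sit above all Sham rats, while the groups overlap for the other 9 genes in every comparison.

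Atf4 (ENSRNOG00000017801) encodes the transcription factor at the centre of the response. Its level was 64.9, 64.5, 69.2 and 71.1 CPM in the Sham rats and 58.6, 70.4, 64.4 and 63.0 CPM in the MI rats. The groups overlapped, with means of 67.4 ± 3.23 and 64.1 ± 4.86 CPM (SD, n = 4). The log2 fold change was -0.08 with a 95% interval of -0.25 to 0.10 (SE 0.09, edgeR adjusted p = 0.675). Of all 10 genes Atf4 had the most reads and the narrowest interval.

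Atf5 encodes a related factor that has been tied to the stress response of mitochondria. Only 6 reads in Sham and 3 in MI were counted, and 4 of these 8 libraries had none. The ratio of MI to Sham was 0.348, with a counting interval of 0.0564 to 1.63. A difference in Atf5 was thus not detectable at this depth.

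Ddit3 encodes CHOP, a factor induced in prolonged stress of the endoplasmic reticulum. It was at 2.76, 6.64, 5.72 and 7.15 CPM in Sham and at 7.02, 7.68, 4.15 and 5.21 CPM in MI. The lowest rat of the pair of groups was a Sham rat, Rat_12_1, and the remaining 3 Sham rats lay within the MI range. The log2 fold change was 0.10 (SE 0.31, 95% interval -0.51 to 0.72, edgeR adjusted p = 0.895).

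Trib3 encodes a pseudokinase that is induced by ATF4 and CHOP and in turn holds ATF4 back. It had 3 reads in Sham and 12 in MI, giving a ratio of 2.79 with a counting interval of 0.752 to 15.4. Rat_57 had the highest Trib3 level, 0.784 CPM, and Rat_61, another MI rat, had no read. The edgeR adjusted p was 0.437 for a log2 fold change of 1.46 (SE 1.04). The gene did not pass, and its few reads limit what could be detected.

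The amino acid targets gave no call either. Asns makes asparagine from aspartate and is a classical target of ATF4. It was at 1.00, 0.722, 1.35 and 0.954 CPM in Sham and at 1.32, 0.784, 2.18 and 1.14 CPM in MI. Only Rat_61 stood above the Sham range, and the log2 fold change was 0.46 (SE 0.42, 95% interval -0.37 to 1.29, edgeR adjusted p = 0.573). Chac1, which breaks down glutathione, had 8 reads in each group, with no read in 1 Sham and 2 MI rats. Its log2 fold change was -0.53 (SE 0.94, edgeR adjusted p = 0.802), and the sign is not settled by so few reads.

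The promoters of these genes were searched for TGATGNAA on both strands, the core of the element that ATF4 binds together with C/EBP proteins. In RefSeq promoter windows of 300 bases (250 before the start and 50 after it, build GRCr8), 2 of the 10 held a match (20.0%), against 1332 of 33469 promoters of all genes (3.98%). A match is a description of the letters, not of binding. The matches lay in Trib3, 21 to 14 bases before the start, and in Chac1, 167 to 160 bases before it, both on the reverse strand. The 250 bases before the start of both genes are shown for their match, and those of Mthfd2 because it was the gene that rose. They are read 5′ to 3′ on the strand of the gene from chr3:161275534-161275783 (Trib3, minus strand), chr3:126795881-126796130 (Chac1, plus strand) and chr4:117380351-117380600 (Mthfd2, minus strand). Capitals mark the match, and the Mthfd2 stretch has none.
Trib3: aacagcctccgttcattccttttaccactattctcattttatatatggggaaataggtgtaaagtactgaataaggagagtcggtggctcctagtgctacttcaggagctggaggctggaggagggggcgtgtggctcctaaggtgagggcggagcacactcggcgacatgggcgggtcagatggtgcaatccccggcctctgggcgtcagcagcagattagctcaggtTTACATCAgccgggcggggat
Chac1: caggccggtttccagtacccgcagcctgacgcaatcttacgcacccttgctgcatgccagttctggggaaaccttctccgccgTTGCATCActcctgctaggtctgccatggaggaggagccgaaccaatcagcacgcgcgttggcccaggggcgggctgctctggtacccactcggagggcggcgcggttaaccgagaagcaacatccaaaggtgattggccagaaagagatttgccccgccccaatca
Mthfd2: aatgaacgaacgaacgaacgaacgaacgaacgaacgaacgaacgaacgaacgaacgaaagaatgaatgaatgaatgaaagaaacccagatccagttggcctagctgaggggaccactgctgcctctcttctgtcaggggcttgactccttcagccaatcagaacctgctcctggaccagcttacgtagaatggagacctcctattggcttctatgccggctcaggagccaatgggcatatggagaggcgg

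The first steps of serine synthesis were low in reads. Phgdh diverts an intermediate of glycolysis into serine, and Psat1 carries out the next step. Phgdh ranged from 0.251 to 1.18 CPM in Sham and from 0.326 to 0.950 in MI, so the MI range lay inside that of Sham. Its log2 fold change was -0.33 (SE 0.58, 95% interval -1.46 to 0.81, edgeR adjusted p = 0.802). Psat1 ranged from 0 to 0.502 CPM in Sham and from 0 to 0.804 in MI, with a log2 fold change of 0.08 (SE 0.89, 95% interval -1.66 to 1.81, edgeR adjusted p = 0.976). Both intervals are several times wider than that of Shmt2, described next.

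Shmt2 (ENSRNOG00000008106) and Mthfd2 (ENSRNOG00000010833) act one after the other in the mitochondria: Shmt2 splits serine into glycine and a one-carbon unit on folate, and Mthfd2 oxidises that unit. Shmt2 was at 21.7, 22.9, 17.8 and 25.4 CPM in Sham and at 18.7, 17.9, 14.5 and 17.8 CPM in MI. Of the Sham rats, Rat_32 lay within the MI range and the other 3 lay above it. The log2 fold change was -0.35 (SE 0.12, 95% interval -0.58 to -0.12), and the unadjusted edgeR p of 0.00673 became 0.0566 after adjustment over all genes. It thus lay just beyond the threshold. Over the fits without 1 rat the adjusted p ran from 0.0236 (without Rat_32) to 0.202, and 4 of 19 alternative fits passed. Of all genes tested, 23.9% had an unadjusted p under 0.05, and 2 of the 10 members did. The cardiomyocyte markers were lower in the same rats, by a median log2 fold change of -0.46.

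Mthfd2 was at 0.251, 0.144, 0.505 and 0.358 CPM in the Sham rats, which is 1 to 3 reads per library. It was at 1.24, 4.23, 2.80 and 1.55 CPM in the MI rats, which is 17 to 27 reads. No MI rat overlapped a Sham rat, and the lowest MI rat was above the highest Sham rat. The means were 0.314 ± 0.154 and 2.46 ± 1.36 CPM (SD, n = 4), and the log2 fold change was 2.87 (SE 0.60, 95% interval 1.69 to 4.04, edgeR adjusted p = 0.00301). From summed reads, 90 in MI against 9 in Sham, the ratio was 6.97 with a counting interval of 3.51 to 15.7. The call held in 19 of 19 alternative fits. The part of the markers of other cells in the level of Mthfd2 was not tested, and the values are given by rat. In the MI group, Rat_57, with the highest Mthfd2 level, had fibroblast and macrophage sums of 2322 and 266 CPM. Rat_61, with 2.80 CPM of Mthfd2, had 3027 and 308.6 CPM. Rat_89, with 1.55 CPM of Mthfd2, had the highest sums (3761 and 397.2 CPM). Rat_36, with the lowest Mthfd2 level, had 2931 CPM and the lowest macrophage sum (245.7 CPM). The values of the MI + UA group follow. Rat_64 and Rat_58, with 3.11 and 1.67 CPM of Mthfd2, had the higher macrophage sums (423.6 and 377.6 CPM) and fibroblast sums (3633 and 3803 CPM). Rat_66 and Rat_29, with 0.900 and 0.800 CPM, had the lower ones (205.9 and 274.1 CPM for macrophages, 2336 and 2906 CPM for fibroblasts).

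**Figure D2:**
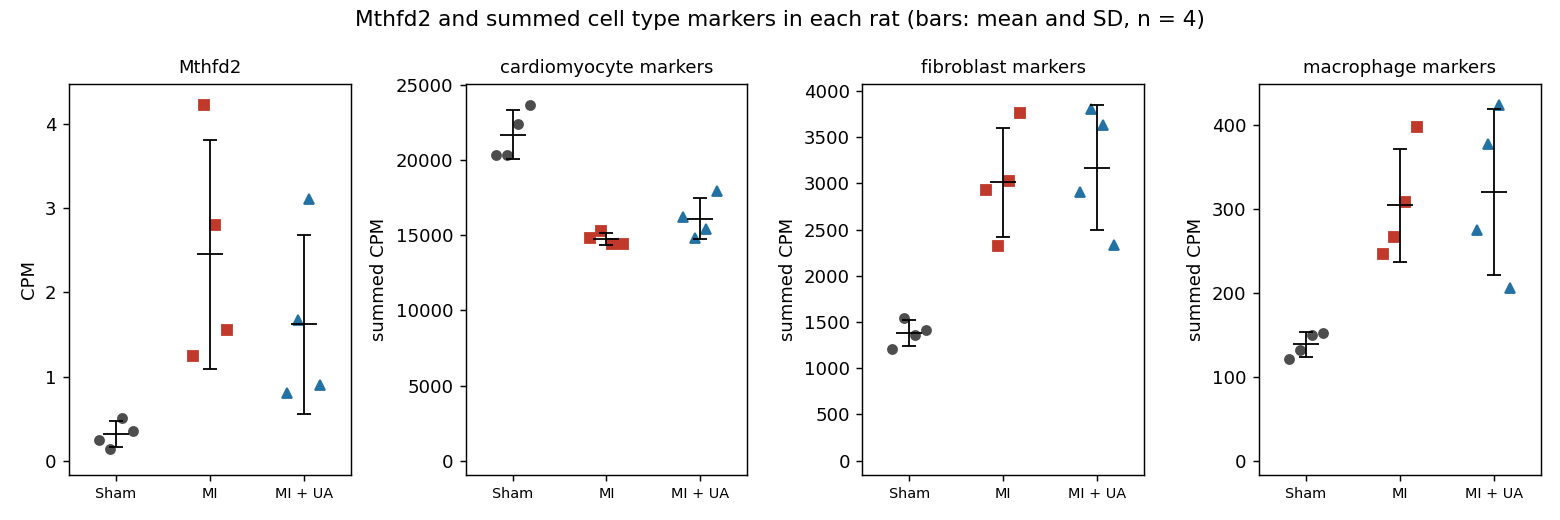
Mthfd2 (CPM) and the summed CPM of the cardiomyocyte, fibroblast and macrophage markers in each rat, on linear vertical axes; points are rats, and bars give the mean and SD (n = 4). Mthfd2 and the fibroblast and macrophage sums are higher in all ligated than in all sham hearts, and the cardiomyocyte sum is lower in all of them.

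The question of the urolithin A arm is whether treatment changed these genes after infarction. None of the 10 passed the test between MI + UA and MI. The count was 0 in edgeR and 0 in DESeq2, a second test for counts, 0 of the 10 had an unadjusted p under 0.05, and the groups of all 10 overlapped. Over all genes the share called was also 0.0%, with 3.79% at an unadjusted p under 0.05 and 2.34% without overlap (1.18% higher and 1.16% lower). Of the 10 log2 fold changes 8 lay above 0 and 2 below. The adjusted p was 0.9997 for each of the 10.

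The 3 genes with most reads bound the size of a difference best. Atf4 was at 68.9, 63.3, 69.8 and 80.4 CPM in MI + UA, where the highest rat was Rat_66, and differed from MI by 0.15 on the log2 scale (SE 0.09, 95% interval -0.03 to 0.32). Ddit3 was at 9.31, 2.70, 7.31 and 9.12 CPM, the widest spread of any group for that gene, and differed by 0.31 (95% interval -0.26 to 0.88). Shmt2 was at 17.9, 17.6, 19.9 and 18.3 CPM (mean 18.4 ± 1.01, SD, n = 4), all within the span of the Sham and MI rats, and differed by 0.09 (95% interval -0.13 to 0.32). All 3 intervals include 0. With Rat_66 counted in MI, the differences were 0.0001 for Atf4, 0.0028 for Ddit3 and 0.07 for Shmt2, so those of Atf4 and Ddit3 depended on its label. With any 1 rat left out, those of Atf4 and Ddit3 were at least 0.08 and 0.15, and that of Shmt2 ran from 0.02 to 0.14.

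Mthfd2 was at 0.800, 1.67, 3.11 and 0.900 CPM in MI + UA. Rat_29 and Rat_66 lay below all 4 MI rats, and Rat_64 lay above 3 of them. The difference from MI was -0.66 on the log2 scale (SE 0.44, 95% interval -1.52 to 0.20, edgeR adjusted p = 0.9997), which did not pass. With Rat_66 counted in MI it was -0.20, and over the fits without 1 rat it ran from -1.14 (without Rat_64) to -0.30 (without Rat_57). The counting interval of the ratio of summed reads, 0.437 to 0.847 around 0.61, was narrower because it leaves out the spread between rats. Asns differed by 0.28 (95% interval -0.45 to 1.01), with Rat_58 and Rat_66 at 2.31 and 2.36 CPM and Rat_29 and Rat_64 at 1.03 and 0.947, and by -0.22 with Rat_66 counted in MI. These 4 rats thus fell into a high pair and a low pair, and the low pair overlapped Sham. The remaining 5 genes, Atf5, Trib3, Chac1, Phgdh and Psat1, had between 3 and 32 reads per group, and their differences ranged from -0.36 to 0.86 on the log2 scale, or from -0.71 to 1.08 with Rat_66 counted in MI.

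Against Sham, the MI + UA rats showed the same single call. This comparison shares its Sham rats with the first one and is not independent of it. Mthfd2 rose, with no overlap (log2 fold change 2.21, SE 0.63, 95% interval 0.98 to 3.44, edgeR adjusted p = 0.0283), and 0 of the 10 fell. Of all genes tested, 9.44% were called in this comparison (5.16% higher and 4.27% lower) and 14.3% did not overlap (7.83% higher and 6.46% lower). With 66 reads against 9, the ratio of summed reads was 4.25 (counting interval 2.11 to 9.70). The call was lost without any 1 of Rat_12_1, Rat_17, Rat_38, Rat_58 and Rat_64, with adjusted p of 0.0797, 0.0862, 0.0719, 0.0581 and 0.0955. The fold stayed large in these fits, 1.73 to 2.48 on the log2 scale over all rats left out in turn. Shmt2 differed by -0.26 (SE 0.12, adjusted p = 0.184) and Asns by 0.74 (SE 0.41, 95% interval -0.06 to 1.55, adjusted p = 0.311). Atf4 differed by 0.07, and by -0.0008 without Rat_66.

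**Figure D3:**
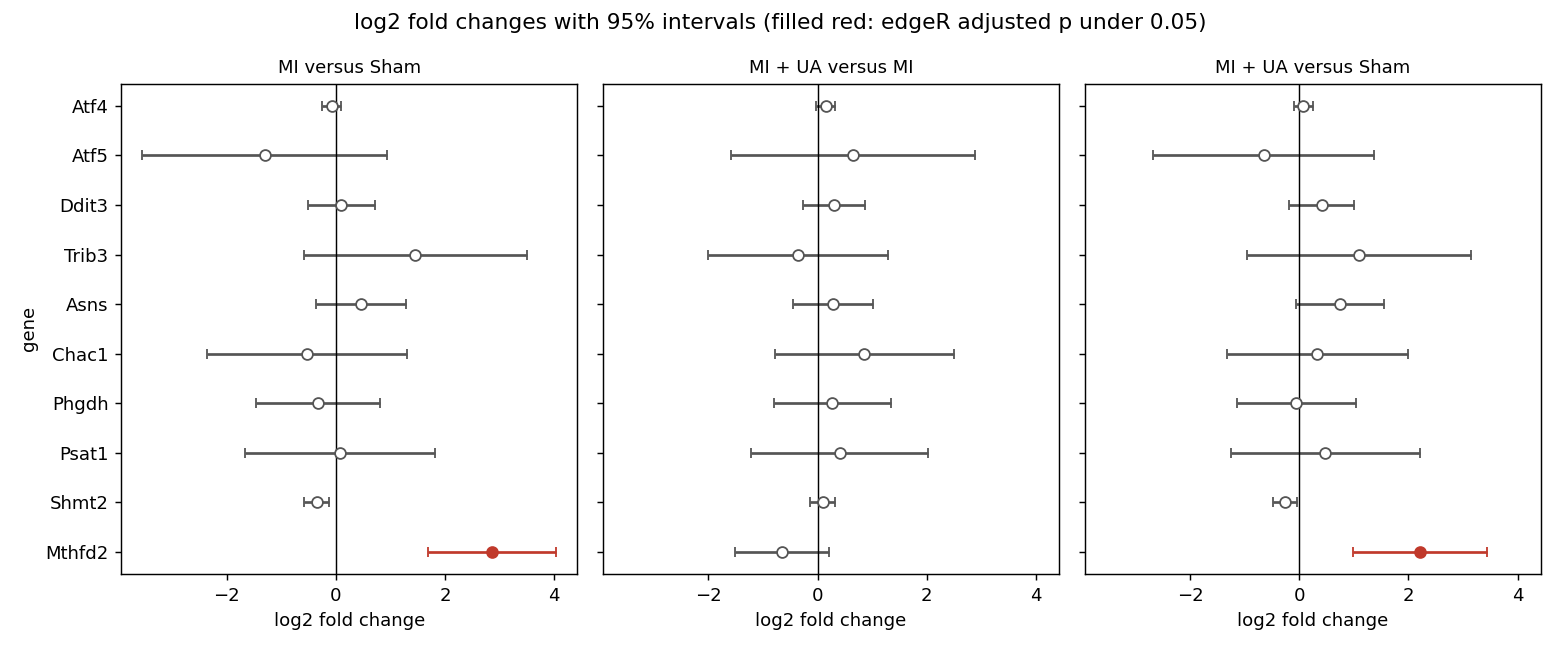
log2 fold changes of the 10 genes in the 3 comparisons (horizontal axes, same scale) with 95% intervals; filled red marks an edgeR adjusted p under 0.05. Mthfd2 stands to the right of 0 in both comparisons with Sham, Atf4 and Shmt2 have narrow intervals, and the genes with few reads have intervals several log2 units wide.

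Another 136 genes around the pathway were placed in 9 lists by function. Of these, 130 were found in the file and 127 were tested. Among the 127, 6 were higher and 10 lower in MI than in Sham (12.6%, beside 11.4% of all genes), with a median log2 fold change of 0.005. This share is near that of all genes, but the count of 16 moved with single rats. It was 9 without Rat_17, 10 without Rat_38, 9 without Rat_61 and 7 without Rat_89, and 11 with Rat_66 counted in MI. Against MI, the MI + UA rats had 0 of 127 called in edgeR and 0 in DESeq2, with 6 at an unadjusted p under 0.05. Against Sham they had 5 higher and 5 lower (7.87%, beside 9.44%), and this count of 10 was 6 without Rat_32, 5 without Rat_38 and 6 without Rat_64.

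Upstream of ATF4, 1 of 9 genes was called higher and 1 lower, beside 5.82% and 5.53% of all genes. Eif2ak3 encodes PERK, the eIF2 kinase of the endoplasmic reticulum, and was higher in MI (log2 fold change 0.42, SE 0.13, edgeR adjusted p = 0.0454). Dele1 encodes the protein that relays mitochondrial stress to the eIF2 kinase HRI, and it fell. It was at 63.48, 67.98, 66.49 and 64.26 CPM in Sham and at 49.06, 58.02, 44.22 and 50.27 CPM in MI, without overlap (log2 fold change -0.38, SE 0.09, edgeR adjusted p = 0.00861). The Dele1 call held in 19 of 19 alternative fits, and that of Eif2ak3 in 7 of 19. Eif2ak3 lost it in 7 of the 12 fits without 1 rat (Rat_12_1, Rat_17, Rat_38, Rat_36, Rat_89, Rat_64 or Rat_66), with adjusted p up to 0.154, and in 5 of the 7 other alternatives, DESeq2 among them (0.0525). The other 7 genes of that list tested did not pass. Ppp1r15a, which encodes the stress-induced phosphatase cofactor GADD34, was listed at 0 reads in all 12 libraries and was not tested. Whether that 0 reflects absent expression or how reads were counted was not tested. None of the 7 subunits of eIF2 and of its exchange factor eIF2B tested passed, and the smallest p belonged to Eif2b4 (log2 fold change -0.25, adjusted p = 0.194) and Eif2b2 (0.38, adjusted p = 0.286).

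Among 6 partners and related factors, 1 passed (16.7%, beside 11.4% of all genes). Nfe2l1, a factor that controls proteasome genes, fell in MI (log2 fold change -0.35, SE 0.07, edgeR adjusted p = 0.00312). Of 10 amino acid transporters 2 rose, beside 5.82% of all genes called higher. Slc1a4, a carrier of serine, alanine and other neutral amino acids, was at 3.01, 5.05, 4.38 and 3.34 CPM in Sham and at 5.63, 6.59, 5.60 and 7.50 CPM in MI, without overlap (log2 fold change 0.70, SE 0.19, adjusted p = 0.0193). Slc1a5, the glutamine carrier ASCT2, had a log2 fold change of 0.94 (SE 0.28, adjusted p = 0.0372) and overlapping groups. Each call depended on single rats. That of Slc1a4 was lost without Rat_12_1, Rat_38 or Rat_89 (adjusted p up to 0.08), and that of Slc1a5 without Rat_12_1, Rat_17, Rat_36, Rat_61 or Rat_89 (up to 0.119) or with Rat_66 counted in MI (0.0627). None of the 20 cytosolic tRNA synthetases passed, and 17 of them lay below 0, with a median of -0.10, whereas 53.0% of all genes lay above 0. The cardiomyocyte markers were lower in the same rats (median -0.46), and their part in this was not tested. Kars and Iars1, which charge lysine and isoleucine, had the smallest p, with log2 fold changes of -0.26 and -0.27 and adjusted p of 0.103 and 0.105.

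Of 19 other ATF4 target genes tested, 1 passed (5.26%, beside 11.4% of all genes). Stc2, which encodes the secreted glycoprotein stanniocalcin 2, was at 10.54, 11.98, 8.08 and 11.09 CPM in Sham and at 7.092, 4.077, 5.19 and 7.74 CPM in MI. It fell, without overlap (log2 fold change -0.76, SE 0.18, edgeR adjusted p = 0.00823), in 19 of 19 alternative fits. In the 23 other serine, glycine and one-carbon enzymes and carriers tested, 1 rose and 1 fell (8.7%, beside 11.4% of all genes). Sfxn1, which carries serine into the mitochondria, had a log2 fold change of 0.61 (SE 0.19, adjusted p = 0.0406). Dld, a subunit shared by the glycine cleavage system and the oxoacid dehydrogenases, had -0.34 (SE 0.10, adjusted p = 0.0243). Sfxn1 lost its call without any 1 of Rat_12_1, Rat_17, Rat_32, Rat_38, Rat_57, Rat_61 and Rat_89 (adjusted p up to 0.128) or with Rat_66 counted in MI (0.0652), and Dld without any 1 of Rat_17, Rat_32, Rat_38, Rat_61 and Rat_89 (up to 0.0945).

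Another 2 genes of this list were looked at after their values were seen, because they are neighbours of Mthfd2 in function. Mthfd2l, its close relative, was at 1.00 to 2.15 CPM in Sham and 1.32 to 2.20 in MI, with overlapping groups and a log2 fold change of 0.32 (adjusted p = 0.65). Aldh1l2, the mitochondrial enzyme that releases the one-carbon unit as carbon dioxide, was at 0.433 to 0.954 CPM in Sham and 1.14 to 1.79 in MI. Its groups did not overlap, but its log2 fold change of 1.01 had an adjusted p of 0.0921. Of the pair, neither passed.

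The mitochondrial unfolded protein response stood furthest from 0 of the 9 lists. Its chaperones and proteases were below 0 in 11 of 11, 6 passed as lower and 0 as higher, and the median log2 fold change was -0.30. Over all genes 5.53% were called lower, 53.0% lay above 0 and the median was 0.03. Hspa9, the mitochondrial Hsp70, was at 159, 181, 183 and 196 CPM in Sham and at 127, 132, 112 and 129 CPM in MI. Hspd1, the chaperonin Hsp60, was at 54.6, 66.2, 66.7 and 69.0 CPM in Sham and at 45.1, 52.2, 36.1 and 44.8 CPM in MI. Both fell without overlap (log2 fold changes -0.53, SE 0.09, and -0.53, SE 0.11, with edgeR adjusted p of 0.000403 and 0.00308). Clpp, a matrix protease, fell by 0.43 on the log2 scale (SE 0.14, adjusted p = 0.0478) but lost its call in 9 of the 12 fits without 1 rat, all but those without Rat_12_1, Rat_58 and Rat_66 (adjusted p up to 0.138). With Rat_66 counted in MI, Hspd1 had -0.38 (adjusted p = 0.057). The count of 6 became 3 without Rat_32, Rat_57, Rat_61, Rat_89 or Rat_29 and 4 with Rat_66 counted in MI, and 6 in DESeq2. The cardiomyocyte markers were lower in the same rats, with a median of -0.46, and their part in this was not tested. In the other arms of the unfolded protein response, 20 of 22 genes lay above 0, with a median of 0.16. The fibroblast and macrophage markers were higher in the same rats (8 of 10 and 7 of 8 called, medians 0.93 and 1.00), and their part in this was not tested. Of these 22 unfolded protein response genes, 2 passed, both higher (9.09%, beside 5.82% of all genes called higher). They were chaperones of the endoplasmic reticulum, Pdia3 (0.37, SE 0.10, adjusted p = 0.0151) and Calr (0.35, SE 0.11, adjusted p = 0.034). Pdia3 lost its call without Rat_38 (adjusted p = 0.0566), and Calr without any 1 of Rat_12_1, Rat_17, Rat_32, Rat_57, Rat_61 and Rat_89 (up to 0.113) or with Rat_66 counted in MI (0.0621).

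**Figure D4:**
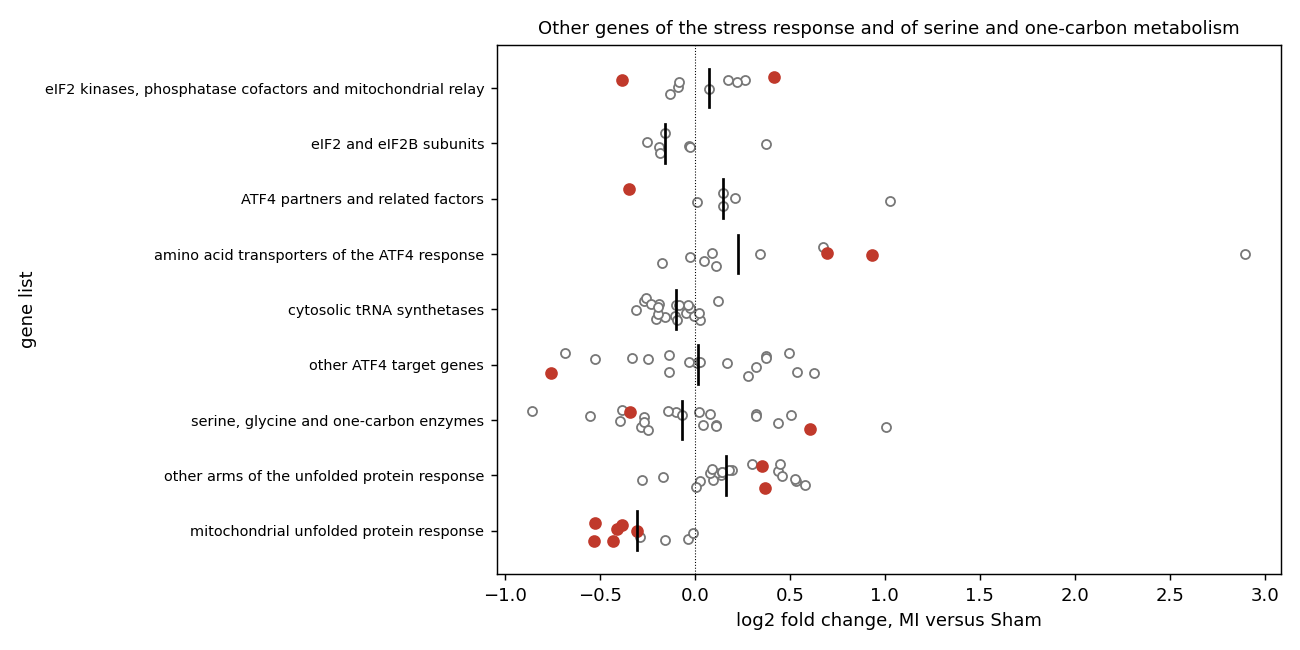
log2 fold change between MI and Sham (horizontal axis) of every tested gene in the 9 lists; filled red points have an edgeR adjusted p under 0.05, and the black bars are list medians. The mitochondrial chaperones and proteases all lie at or left of 0, with 6 of 11 filled.

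In MI + UA against Sham, Slc1a4 (0.97, SE 0.18, edgeR adjusted p = 0.00191), Nfe2l1 (-0.32, adjusted p = 0.00709), Stc2 (-0.81, adjusted p = 0.0062) and Ndrg1 (0.63, adjusted p = 0.00988) passed in 19 of 19 alternative fits. Atf3, a factor induced early in stress, was at 5.52, 3.03, 4.88 and 4.05 CPM in Sham, at 5.04, 6.59, 4.15 and 4.81 in MI and at 10.3, 5.65, 7.04 and 16.5 in MI + UA. The highest of all 12 was Rat_66, the rat with the uncertain group. Its log2 fold change against Sham was 1.23 (SE 0.28, adjusted p = 0.00647), and with Rat_66 counted in MI it was 0.85 (adjusted p = 0.208). Slc7a11, the cystine carrier that feeds glutathione synthesis, had 2 Sham rats with no read and 5.01 CPM in Rat_64 (3.30, SE 0.97, adjusted p = 0.0347), and lost its call without Rat_12_1, Rat_17, Rat_32, Rat_38 or Rat_64 (up to 0.134). Dele1 (-0.30, adjusted p = 0.0443), Pdia3 (0.32, adjusted p = 0.0419), Clpp (-0.50, adjusted p = 0.0238) and Hspa9 (-0.34, adjusted p = 0.0147) passed as well, each with a call that depended on single rats. Dele1 kept it only without Rat_57, Rat_61 or Rat_66 among the 12 fits without 1 rat (adjusted p otherwise up to 0.137), and lost it with Rat_66 counted in MI (0.05). Pdia3 lost it without Rat_12_1, Rat_32, Rat_38, Rat_89, Rat_58, Rat_64 or Rat_66 (up to 0.126), with Rat_66 counted in MI (0.0835), with 2 groups only (0.0707) and with no filter on low counts (0.0571). Clpp lost it without Rat_17, Rat_32, Rat_38, Rat_29 or Rat_58 (up to 0.0813), and Hspa9 without Rat_38 or Rat_64 (up to 0.0651). In the 3 lists with no call, the smallest p belonged to Eif2b5 (-0.20, adjusted p = 0.358) and Eif2b4 (-0.16, adjusted p = 0.474) of the initiation factor subunits. For the tRNA synthetases these were Kars (-0.31, adjusted p = 0.0519) and Hars1 (-0.29, adjusted p = 0.259). For the serine and one-carbon enzymes they were Aldh1l2 (1.13, adjusted p = 0.0567) and Sfxn1 (0.57, adjusted p = 0.0642). Kars passed in 8 of 19 alternative fits, Sfxn1 in 3 and Aldh1l2 in 1. Slc7a11 and Ndrg1 also lay higher in MI than in Sham, without a call. Their log2 fold changes there were 2.89 (edgeR adjusted p = 0.0659) and 0.38 (adjusted p = 0.126), and the groups of Ndrg1 did not overlap. Between MI + UA and MI, Slc7a11 differed by 0.41 (adjusted p = 0.9997).

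Between MI + UA and MI no gene of the lists passed, and the values with the smallest p are given without a call. They were Atf3 (1.01, SE 0.26, unadjusted p = 0.000844, edgeR adjusted p = 0.9997) and Hspd1 (0.37, SE 0.11, unadjusted p = 0.00287, adjusted p = 0.9997). With Rat_66 counted in MI they became 0.04 for Atf3 and 0.14 for Hspd1. Hspd1 was at 56.2, 53.2, 53.2 and 66.5 CPM in MI + UA, above all 4 MI rats, and this was the single gene of the 127 without overlap. That is 1 of 127, beside 2.34% of all genes. The highest of these 4 was Rat_66, and counted in MI it would lie above the other 3, so the separation rested on its label. The rest of the pair with the smallest p in each list were, among kinases and relay, Eif2ak3 (-0.17) and Gcn1 (-0.08), and among eIF2 and eIF2B subunits, Eif2b2 (-0.27) and Eif2b4 (0.09). Cebpb, a partner of ATF4, had -0.25. Of the transporters, Slc43a1 had -0.50 and Slc1a4 0.27, and of the tRNA synthetases, Gars had 0.16. Ddit4, an inhibitor of mTORC1 signalling, had -0.64 and Ndrg1 0.25. Mat2a, which makes S-adenosylmethionine, had 0.26 and the folate carrier Slc25a32 0.29. The endoplasmic chaperones Calr and Hyou1 had -0.18 each, and Hspa9 had 0.19. None of these passed, and each overlapped between the groups. Many of these small differences changed with Rat_66 counted in MI. Those of Mat2a, Gars, Hspa9, Gcn1 and Eif2b4 became 0.05, 0.05, 0.07, -0.06 and -0.03, and those of Ddit4 and Slc25a32 became -0.36 and 0.17. Eif2b2, Ndrg1 and Hyou1 lay further from 0 (-0.47, 0.37 and -0.26), Calr nearer (-0.12), and Eif2ak3, Cebpb, Slc43a1 and Slc1a4 were at -0.16, -0.26, -0.44 and 0.25. Without 1 rat, Hyou1 ran from -0.25 to -0.02, Cebpb from -0.36 to -0.09, Gcn1 from -0.12 to -0.04 and Eif2b4 from 0.03 to 0.14.

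The genes that followed 3 of the members most closely over the 12 rats were found by the root mean square difference in centred log2 CPM, over 10930 genes. For Atf4 they were Ipo7 (0.07), Ripor1 (0.08) and Zfp91 (0.08). For Asns they were Ackr1, Casp1 and Plppr3 (0.34, 0.34 and 0.35), and for Phgdh they were Cbr1, Stn1 and Tmem198b (0.39, 0.43 and 0.44). Atf4 itself varied by an SD of 0.12 over the rats, so any gene of steady level comes near it by this measure.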

How the data were processed

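RNA from 12 rat left ventricles, 4 per group, was depleted of ribosomal RNA by the protocol, although the labels name the molecule as polyA RNA, and sequenced as strand-specific pairs. The authors aligned reads with STAR 2.6.1c to mRatBN7.2 and counted them per gene with HTSeq, whose version and strand setting are not given in the sources used here. The deposited values are raw counts. The 5 summary rows (51.7 to 57.1% of counted reads) were left out. Counts were scaled by TMM and tested with edgeR 4.0.16 (quasi-likelihood, R 4.3.3) in one fit of the 3 groups, over 18182 genes with at least 10 reads in total, with Benjamini-Hochberg adjustment and a threshold of 0.05. The authors of the study used DESeq2, which served as an alternative (version 1.42.0), beside other scalings, filters, the regrouping of Rat_66 and each rat left out in turn. Intervals are 1.96 SE, and those of read ratios are exact binomial and cover counting error only. The scripts were tested on simulated data. Changes were simulated only in the MI group and only in genes with more reads than Mthfd2, so its depth was not covered. The 10 genes and the lists were chosen with earlier results of these data known. All 10 genes are named. From each list, the text names per comparison up to 3 called genes with the largest rise and up to 3 with the largest fall, or 2 with the smallest p where none was called, and 1 gene that this rule names is not reported here. 1 library that the study excluded was not analysed here. Another 6 listed genes were not analysed here. The RefSeq promoters are of another build than the counts (GRCr8), so no gene coordinates were set beside them.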

Additional observations from a re-analysis of the deposited data

How the results depend on the processing

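No paired analysis was possible because each rat is in 1 group and no rat number is shared between groups. For the 10 genes, 525 of 553 alternative values kept their direction and their side of the threshold, 5 lost and 4 gained a call and 19 changed sign. The count of members called between MI and Sham was 1, and 2 with TMM without the mitochondrially encoded genes, with the stricter filterByExpr (which kept 5 of the 10) and with DESeq2, since Shmt2 then passed (Shmt2 adjusted p of 0.0485, 0.0449 and 0.0442). It was 1 to 2 with each rat left out, and 2 without Rat_32. Between MI + UA and Sham it was 0 to 1, and 0 without Rat_12_1, Rat_17, Rat_38, Rat_58 or Rat_64. Between MI + UA and MI it was 0 in all fits. Members without overlap numbered 1 to 2 for MI against Sham (2 without Rat_32 or Rat_57) and 1 to 3 for MI + UA against Sham (3 without Rat_32, 2 without Rat_58). Genes of the lists called between MI and Sham numbered 7 to 19 with a rat left out (9 without Rat_17, 10 without Rat_38, 9 without Rat_61, 7 without Rat_89), against 16, and between MI + UA and Sham 5 to 12 (6 without Rat_32, 5 without Rat_38, 6 without Rat_64), against 10. Genes of the mitochondrial unfolded protein response called between MI and Sham numbered 3 to 6 with a rat left out, against 6, and between MI + UA and Sham 0 to 3, against 2 (0 without Rat_38, 1 without Rat_17, Rat_32, Rat_29, Rat_58 or Rat_64), and 4 with filterByExpr. With a rat left out, the log2 fold change between MI and Sham spanned 0 for Ddit3 (-0.13 to 0.26), Chac1 (-1.33 to 0.15) and Psat1 (-0.92 to 0.45). It did so between MI + UA and MI for Trib3 (-0.76 to 0.26), Phgdh (-0.037 to 0.76) and Psat1 (-0.40 to 1.41), and between MI + UA and Sham for Atf4 (-0.0008 to 0.12), Chac1 (-0.059 to 1.00), Phgdh (-0.36 to 0.25) and Psat1 (-0.32 to 0.89). With Rat_66 counted in MI, the sign changed for Psat1 between MI and Sham (-0.18), for Asns (-0.22) and Eif2b4 (-0.029) between MI + UA and MI, and for Atf4 (-0.0004) and Phgdh (0.23) between MI + UA and Sham. None of these sign changes concerned a called gene, and the cause was not tested. The alternatives for counts without overlap, for the mitochondrial list, for named genes of the lists and for the lists between MI + UA and Sham were chosen after seeing the data. Depth limits Atf5, Trib3, Chac1 and Psat1, each under 50 reads in total.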
